A study of Mus musculus with 12 samples.

Results

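The NADPH-generating enzymes were followed as 6 genes, G6pdx, Pgd, Taldo1, Tkt, Me1 and Idh1, through every probe set that the array's platform annotation assigns to their symbols. In that annotation 5 of the 6 genes have a probe set, and these 5 hold 11 of the 22626 probe sets left after the array's own controls were set aside. Pgd had 4 probe sets, Tkt, Me1 and Idh1 had 2 each, and Taldo1 had 1. No probe set carries the symbol G6pdx in the annotation used here, so that gene was not analysed here. All 11 probe sets passed the filter on dim signals, which 15855 probe sets passed in all.

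The signals come from total RNA of mouse lung on 12 Affymetrix Murine Genome arrays, 3 in each of 4 groups, and all mice were of the CD-1/ICR strain. The groups were Nrf2-deficient mice (Nrf2–/–, knockout or KO) ventilated mechanically at a high tidal volume (HVT, 30 ml/kg) for 2 h, knockout mice breathing spontaneously (SpV) for 2 h, wild-type mice (Nrf2+/+, WT) under the same high tidal volume, and wild-type mice breathing spontaneously. The labels give the left lobe for 11 arrays and the whole lung for WT SpV array 1, and they give neither the animals' age or sex nor the part of the Nrf2 gene that was deleted. They do not say that the 3 arrays of a group are separate animals, so a p-value here speaks only of how these samples spread, and part of that spread may be technical.

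NADPH is the reduced cofactor that glutathione reductase, thioredoxin reductase and lipid-synthesising enzymes draw on, and cells make it in the cytosol by a small set of dehydrogenases. Glucose-6-phosphate dehydrogenase (G6pdx) and 6-phosphogluconate dehydrogenase (Pgd) make it in the oxidative branch of the pentose phosphate pathway, while transaldolase (Taldo1) and transketolase (Tkt) run the non-oxidative branch, which returns carbon to glycolysis. Malic enzyme (Me1) and the cytosolic isocitrate dehydrogenase (Idh1) make NADPH from malate and isocitrate. NRF2, the transcription factor encoded by Nfe2l2 and called Nrf2 in the labels, binds the antioxidant response element near its target genes, and these enzymes are among the targets described for it in mouse and human cells.

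The core of that element, TGACNNNGC, was searched on both strands in the RefSeq promoter windows of the 6 genes (assembly GRCm38.p6, 250 bases before to 50 after each annotated start). It occurred 3 times in their 9 windows, and 12.4% of all 32851 windows of that length hold it. Part of the first window is shown for Me1, which has a match in it, and for Pgd, which has none in its whole window. These genes were chosen because the highest and the lowest averaged genotype differences among the probe sets, given below, belong to them. Capitals mark the match, and both sequences read along the gene, which lies on the minus strand in each case; they span chr9:86695905-86695984 for Me1 (bases -70 to 10 around the start) and chr4:149166706-149166825 for Pgd (bases -120 to -1).
Me1: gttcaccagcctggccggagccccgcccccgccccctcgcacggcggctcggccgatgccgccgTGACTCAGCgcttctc
Pgd: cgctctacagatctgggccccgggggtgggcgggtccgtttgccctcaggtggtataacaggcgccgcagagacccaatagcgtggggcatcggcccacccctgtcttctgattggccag
The Me1 match spans bases -6 to 3. Of the other matches, one lies at bases 4 to 12 of the window at a second annotated start of Pgd and one at bases -57 to -49, on the opposite strand, of the G6pdx window. The windows of Taldo1, Tkt and Idh1 hold none. A match describes the letters of a window, and nothing about binding of NRF2 is read from it.

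Quality differed between arrays. The trimmed mean of the deposited signals ran from 182 to 247 on the KO HVT arrays, from 73.9 to 469 on the KO SpV arrays, from 279 to 439 on the WT HVT arrays and from 316 to 423 on the WT SpV arrays. KO SpV array 1 was the dimmest. Its ratio of 3′ to 5′ beta-actin signal was 8.76, against 1.39 and 1.52 on the other KO SpV arrays, and it correlated with the rest at r = 0.873 on average, where each remaining array had an average r of 0.925 to 0.942. The ratio was 3.10, 2.21 and 3.02 on the KO HVT arrays and 1.99, 1.58 and 1.53 on the WT HVT arrays, without overlap, and 2.51, 2.08 and 2.36 on the WT SpV arrays. The values of the 11 probe sets and the counts of the gene lists were refitted without KO SpV array 1, and the 11 probe sets also with the log2 actin ratio as a covariate. The arrays were scaled to a common trimmed mean and quantile normalized, and the values below are normalized signals in array units or, where stated, log2 differences. Nfe2l2 had 36.2 to 61.3 units on the 6 knockout arrays and 2144 to 3298 units on the 6 wild-type arrays, so all arrays matched their labelled genotype. The 9 alveolar type II markers measured, among them the surfactant protein genes, summed to between 69072 and 102671 units on every array.

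**Figure D1:**
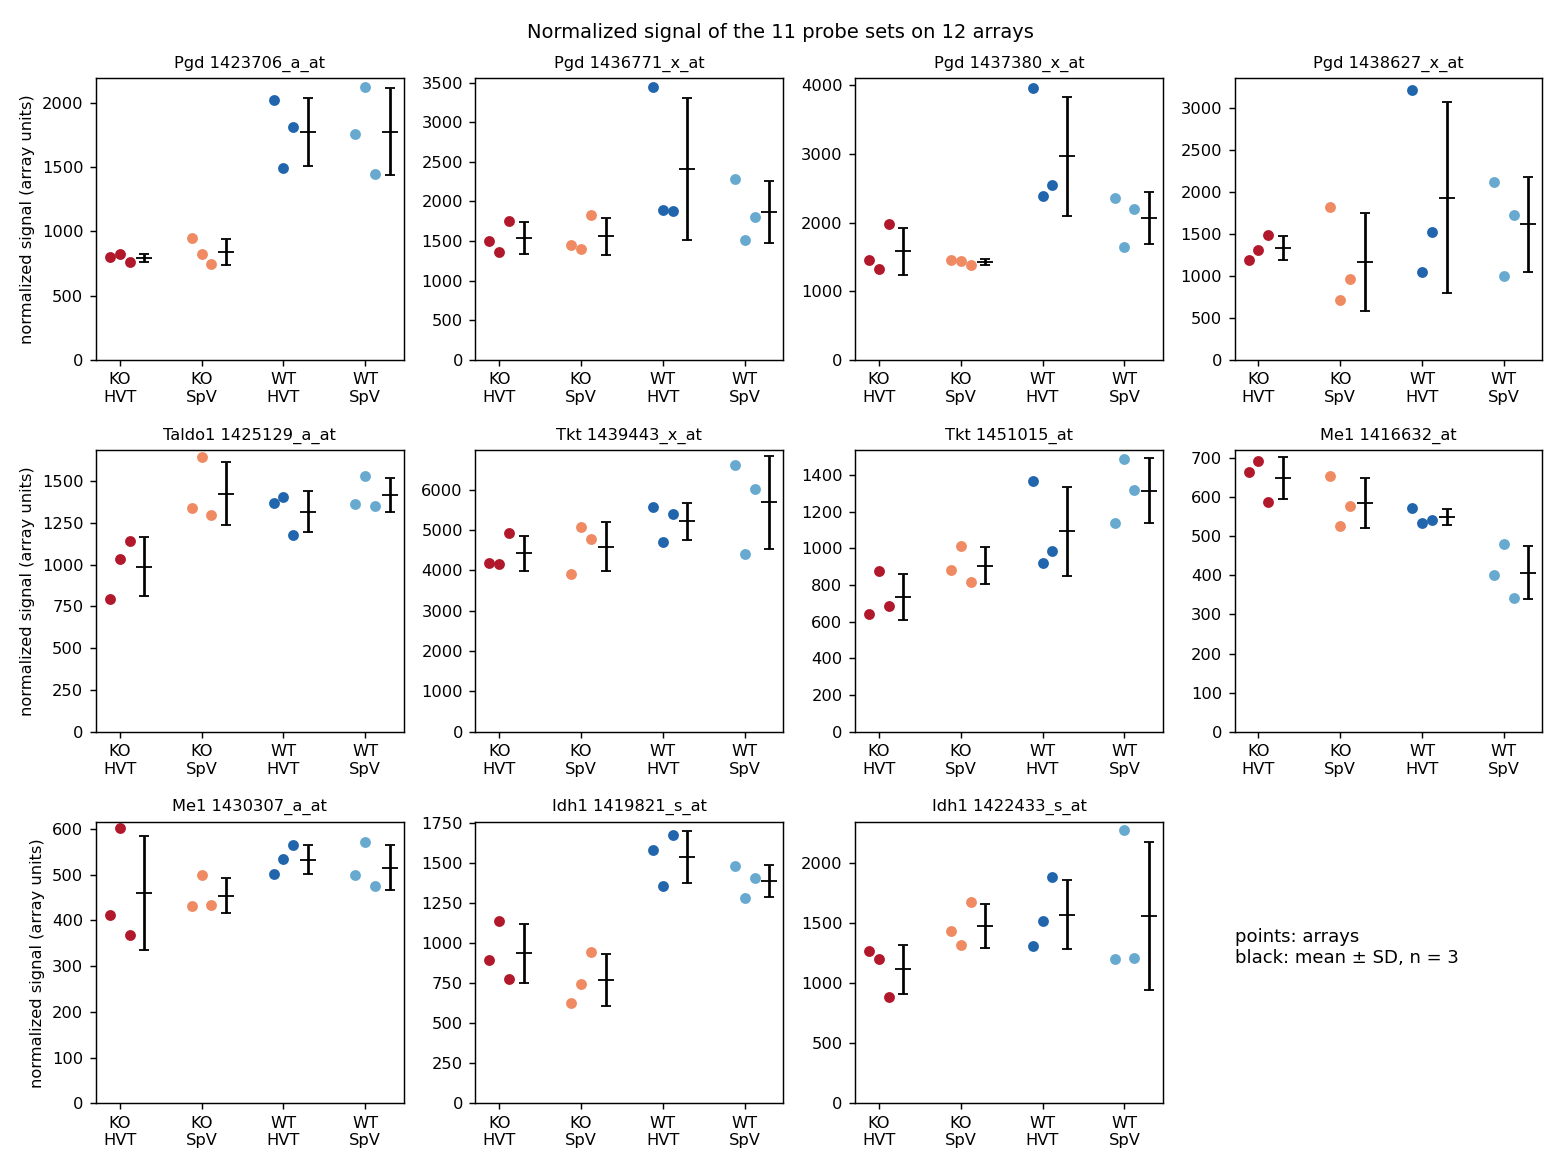
Normalized signal (array units, vertical axes from 0) of each of the 11 probe sets in KO HVT, KO SpV, WT HVT and WT SpV lungs; points are arrays and black bars are the mean and SD of 3. The knockout points of Pgd 1423706_a_at and Idh1 1419821_s_at all lie below the wild-type points, at most 951 and 1138 units on knockout arrays against at least 1445 and 1282 units on wild-type arrays, while those of Me1 1416632_at run from 526 to 692 units on knockout arrays and from 342 to 574 units on wild-type arrays.

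Loss of Nrf2 was accompanied by lower Pgd signal, both in ventilated lungs and in lungs breathing spontaneously. Of its 4 probe sets, only 1423706_a_at was called within HVT lungs or within SpV lungs. Pgd catalyses the second NADPH-yielding step of the oxidative branch and lies at chr4:149149991-149166705. Its probe set 1423706_a_at had 796, 823 and 764 units in KO HVT lungs, 951, 827 and 749 units in KO SpV lungs, 2018, 1491 and 1815 units in WT HVT lungs and 1759, 2121 and 1445 units in WT SpV lungs. Every knockout array was below every wild-type array, and the 2 kinds of breathing overlapped within each genotype. The group means were 794 ± 29.6 units in KO HVT lungs, 842 ± 102 units in KO SpV lungs, 1775 ± 266 units in WT HVT lungs and 1775 ± 338 units in WT SpV lungs (SD, n = 3 each).

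The log2 difference of this Pgd signal, knockout minus wild type, was -1.13 ± 0.17 (SE) in HVT lungs (limma adjusted p = 0.0116) and -1.05 ± 0.17 in SpV lungs (limma adjusted p = 0.0196). Averaged over both kinds of breathing it was -1.09 ± 0.12, a ratio of 0.469 with a 95% interval of 0.390 to 0.565 (limma adjusted p = 0.000642 over 15855 probe sets). The averaged difference kept its call in each of the 12 fits that left out 1 array, from -1.16 to -1.02. Both single comparisons lost their call in some of them. In HVT lungs the adjusted p was 0.0517 without KO HVT array 2, 0.063 without KO HVT array 3, 0.0808 without WT HVT array 1 and 0.0507 without WT HVT array 3. In SpV lungs it was 0.0555 without KO SpV array 2, 0.0892 without KO SpV array 3, 0.0917 without WT SpV array 1 and 0.0841 without WT SpV array 2. Without the dim KO SpV array 1 the averaged difference was -1.14 ± 0.12 (limma adjusted p = 0.000214), and a fit with that actin ratio as a covariate gave -1.13 ± 0.12 (adjusted p = 0.00022). In HVT lungs, where the actin ratio differed between the genotypes without overlap, the covariate fit gave -1.20 ± 0.17 (adjusted p = 0.00447). With that covariate and without KO SpV array 1 the calls in single groups were lost, at -1.09 ± 0.32 in HVT lungs (adjusted p = 0.185) and -1.18 ± 0.32 in SpV lungs (adjusted p = 0.199). On the deposited values without scaling, where the median of all tested probe sets was itself -0.60, the averaged difference was -1.79 and lost its call (adjusted p = 0.0599). In RNA from whole tissue, fewer cells of a type and less RNA per cell cannot be told apart.

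The brightest Pgd probe set, 1437380_x_at, had 1453, 1316 and 1971 units in KO HVT lungs, 1457, 1434 and 1377 units in KO SpV lungs, 3963, 2381 and 2546 units in WT HVT lungs and 2357, 1639 and 2198 units in WT SpV lungs. The genotypes did not overlap within either kind of breathing, but KO HVT array 3 was above WT SpV array 2. Its averaged difference was -0.70 ± 0.15 (limma adjusted p = 0.0299), and it did not pass within HVT lungs (-0.88 ± 0.22, adjusted p = 0.114) or within SpV lungs (-0.52 ± 0.22, adjusted p = 0.342). The averaged call was lost in 6 of the 12 fits without 1 array: adjusted p was 0.0758 without KO HVT array 1, 0.0699 without KO HVT array 2, 0.0595 without KO SpV array 3, 0.0541 without WT HVT array 1, 0.0723 without WT SpV array 1 and 0.0851 without WT SpV array 3. In HVT lungs a call was gained without KO SpV array 1 (adjusted p = 0.0362), and on unscaled values the averaged call was lost (-1.41, adjusted p = 0.187). The remaining Pgd probe sets, 1436771_x_at and 1438627_x_at, had averaged differences of -0.42 ± 0.17 and -0.44 ± 0.29, with adjusted p = 0.196 and 0.436 by limma. In HVT lungs they had -0.59 ± 0.24 (limma adjusted p = 0.34) and -0.38 ± 0.41 (adjusted p = 0.741). In SpV lungs, where the genotypes overlapped on both, they had -0.25 ± 0.24 (adjusted p = 0.709) and -0.51 ± 0.41 (adjusted p = 0.644). Probe sets whose names end in x_at or s_at can also bind other transcripts, and over the 12 arrays the 4 Pgd probe sets correlated pairwise at r = 0.45 to 0.90. Those correlations share the arrays and the genotype difference. Over all alternatives the highest SpV difference of each x_at Pgd probe set was above 0 and not called. It was 0.27 for 1437380_x_at, 0.71 for 1436771_x_at and 0.27 for 1438627_x_at. In the fits that left out 1 array the highest values were -0.41, -0.09 and -0.22, in that order.

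Transketolase and transaldolase, the enzymes of the non-oxidative branch, gave no call in the averaged genotype comparison. For Tkt (chr14:30549131-30574724), probe set 1451015_at had 642, 877 and 684 units in KO HVT lungs, 883, 1015 and 818 units in KO SpV lungs, 1370, 919 and 988 units in WT HVT lungs and 1136, 1491 and 1317 units in WT SpV lungs. Within each kind of breathing every knockout array was below every wild-type array. Its averaged difference was -0.54 ± 0.14 with a limma adjusted p of 0.0512, next to the threshold, and the values within HVT and SpV lungs were -0.55 ± 0.19 (adjusted p = 0.257) and -0.53 ± 0.19 (adjusted p = 0.278). It passed without KO HVT array 2 (-0.61, adjusted p = 0.0495), without KO SpV array 1 (-0.53, adjusted p = 0.0453) and without KO SpV array 2 (-0.58, adjusted p = 0.0437). In all it passed in 10 of 24 alternatives, among them the actin covariate (-0.53, adjusted p = 0.0451) and array weights (-0.53, adjusted p = 0.00822), and array weights also gave a call in SpV lungs (-0.56, adjusted p = 0.0312). The brighter Tkt probe set, 1439443_x_at, ran from 3916 to 5082 units on knockout arrays and from 4409 to 6626 units on wild-type arrays, with an averaged difference of -0.27 ± 0.12 (adjusted p = 0.226).

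Taldo1 (chr7:141392160-141402976) had 794, 1033 and 1140 units in KO HVT lungs, 1339, 1644 and 1297 units in KO SpV lungs, 1369, 1408 and 1178 units in WT HVT lungs and 1364, 1533 and 1351 units in WT SpV lungs on its probe set 1425129_a_at. The 3 KO HVT arrays were the lowest of the 12. Its genotype difference was -0.42 ± 0.17 in HVT lungs (limma adjusted p = 0.332; -0.38 ± 0.17 with the actin covariate, adjusted p = 0.342) and 0.01 ± 0.17 in SpV lungs (adjusted p = 0.992), so neither passed. The averaged difference was -0.21 ± 0.12 (adjusted p = 0.358).

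Me1, the malic enzyme (chr9:86581363-86695914), had probe sets that pointed in opposite directions. On 1416632_at it had 665, 692 and 588 units in KO HVT lungs, 655, 526 and 577 units in KO SpV lungs, 574, 534 and 542 units in WT HVT lungs and 401, 480 and 342 units in WT SpV lungs. Knockout arrays were above wild-type arrays within each kind of breathing, and KO SpV arrays overlapped WT HVT arrays. The averaged difference was 0.37 ± 0.11, the sole positive one among the 11 probe sets, and it did not pass (limma adjusted p = 0.0991); on the unscaled values its sign turned, to -0.31 (adjusted p = 0.576), which is still above the median of -0.60 over all probe sets there. Array weights gave it a call (0.39 ± 0.09, adjusted p = 0.0145). The values were 0.23 ± 0.16 in HVT lungs (adjusted p = 0.588) and 0.51 ± 0.16 in SpV lungs (adjusted p = 0.213). On 1430307_a_at the signals ran from 367 to 602 units on knockout arrays and from 475 to 570 units on wild-type arrays, with an averaged difference of -0.20 ± 0.13 (adjusted p = 0.422). Over the 12 arrays these Me1 probe sets correlated at r = -0.16.

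Me1 is abundant in fat cells, and the signals of fat cell markers differed between arrays. The 7 fat cell markers measured, of 12 listed, summed to 5983, 19387 and 4968 units on the KO HVT arrays, 3851, 7245 and 5769 units on the KO SpV arrays, 4057 to 4792 units on the WT HVT arrays and 3674 to 4780 units on the WT SpV arrays. In the averaged genotype comparison 1 of the 7 was called higher and 0 lower. KO HVT array 2, with the highest sum, also had the highest signal of both Me1 probe sets. Other arrays did not follow that order. KO SpV array 1, with a sum of 3851 units, had 655 units on Me1 1416632_at. KO HVT array 3, with a sum of 4968 units, had the lowest signal of 1430307_a_at, at 367 units. The part of these markers in the Me1 values was not tested.

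Idh1, the cytosolic isocitrate dehydrogenase (chr1:65158616-65186479), was lower in knockout lungs on one of its probe sets. On 1419821_s_at it had 895, 1138 and 776 units in KO HVT lungs, 625, 741 and 946 units in KO SpV lungs, 1576, 1357 and 1675 units in WT HVT lungs and 1477, 1282 and 1406 units in WT SpV lungs. Every knockout array was below every wild-type array. The averaged difference was -0.79 ± 0.13, a ratio of 0.580 with a 95% interval of 0.475 to 0.709 (limma adjusted p = 0.00914), and it stayed between -0.86 and -0.72 with its call in all 12 fits without 1 array. It was -0.71 ± 0.12 with the actin ratio as a covariate (adjusted p = 0.00529), and on the unscaled values it was -1.48 without a call (adjusted p = 0.173). The single comparisons did not pass, at -0.72 ± 0.19 in HVT lungs (adjusted p = 0.132) and -0.85 ± 0.19 in SpV lungs (adjusted p = 0.0721), but each passed in 2 of 24 alternatives. The value in HVT lungs passed without KO SpV array 1 (-0.72, adjusted p = 0.0307) and with array weights (-0.79, adjusted p = 0.0164), and with the actin covariate it was -0.60 ± 0.17 (adjusted p = 0.13). The value in SpV lungs passed with the actin covariate (-0.82, adjusted p = 0.0177) and with array weights (-0.66, adjusted p = 0.0123).

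The brighter Idh1 probe set, 1422433_s_at, had 1262, 1200 and 884 units in KO HVT lungs, 1436, 1314 and 1670 units in KO SpV lungs, 1310, 1517 and 1882 units in WT HVT lungs and 1199, 2269 and 1212 units in WT SpV lungs. The SpV groups overlapped, and the KO HVT arrays were below the WT HVT arrays. Its averaged difference was -0.25 ± 0.17 (limma adjusted p = 0.459), and the Idh1 probe sets correlated at r = 0.31 over the 12 arrays.

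**Figure D2:**
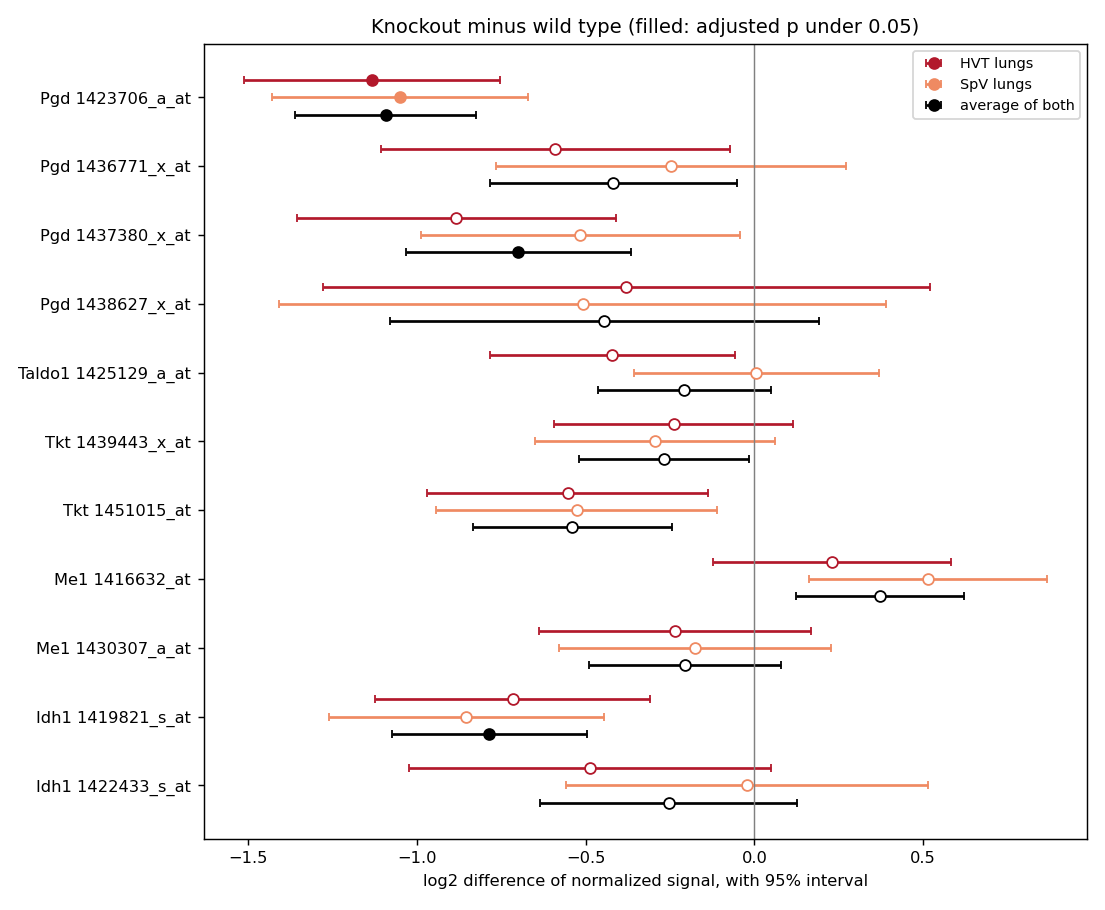
Log2 difference of normalized signal, knockout minus wild type, with 95% intervals, for each of the 11 probe sets in HVT lungs, in SpV lungs and averaged over both; filled points have a limma adjusted p under 0.05. The averaged value is filled for Pgd 1423706_a_at (-1.09), Pgd 1437380_x_at (-0.70) and Idh1 1419821_s_at (-0.79), and Me1 1416632_at (0.37, or -0.31 on unscaled values) is the one averaged value above 0.

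By count, 3 of the 11 probe sets were called lower and 0 higher in the averaged genotype comparison, against 3.27% of all tested probe sets called in either direction. At an unadjusted p under 0.05 the count was 7 of 11, against 19.8% of all, and all knockout arrays lay apart from all wild-type arrays for 2 of 11, against 2.49% of all. In HVT lungs 1 of 11 was called (0.656% of all), 6 had an unadjusted p under 0.05 (12.5% of all) and 8 did not overlap between genotypes (24.6% of all). In SpV lungs 1 of 11 was called (0.505% of all), 5 had an unadjusted p under 0.05 (12.9% of all) and 5 did not overlap (17.8% of all). The median averaged difference of the 11 was -0.42, with 10 below 0 and 1 above, while the median of all tested probe sets was -0.00. Probe sets of one gene share their transcript, so these are not 11 independent values.

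With the brightest probe set standing for each gene, 1 of the 5 genes, Pgd, was called in the averaged genotype comparison, against 3.46% of all 9333 genes. With the mean of all probe sets of a gene, an alternative chosen after the data had been seen, 3 of the 5 were called lower, against 3.42% of all genes called in either direction: Pgd at -0.66 ± 0.15 (limma adjusted p = 0.0382), Tkt at -0.40 ± 0.10 (adjusted p = 0.0407) and Idh1 at -0.52 ± 0.12 (adjusted p = 0.043). On that scale Me1 had 0.08 ± 0.11 (adjusted p = 0.706) and Taldo1 had -0.21 ± 0.11 (adjusted p = 0.32). The calls for Tkt and Idh1 thus depended on which probe sets stood for the gene. Within single groups the mean of the Pgd probe sets was not called, at -0.75 ± 0.22 in HVT lungs (limma adjusted p = 0.179) and -0.58 ± 0.22 in SpV lungs (adjusted p = 0.273).

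Ventilation at the high tidal volume gave no called probe set among these enzymes in either genotype. In knockout lungs limma called 0 of 11 at an adjusted p under 0.05, as it did for 0% of all tested probe sets. There 1 of 11 had an unadjusted p under 0.05 (11.1% of all) and 2 did not overlap between HVT and SpV lungs (15% of all). In wild-type lungs limma called 0 of 11 (0.0252% of all), 2 had an unadjusted p under 0.05 (7.28% of all) and 2 did not overlap (16.4% of all). Averaged over the genotypes it called 0 of 11 (0.126% of all), with 2 at an unadjusted p under 0.05 (13.2% of all). The interaction of genotype and ventilation gave 0 calls and 0 unadjusted p under 0.05 among the 11, against 0% and 5.04% of all.

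Taldo1 was the gene with the largest ventilation difference among these enzymes in knockout lungs, at -0.53 ± 0.17, HVT minus SpV, with a 95% interval of -0.89 to -0.17 (limma adjusted p = 0.32). Its 3 KO HVT arrays, at 794 to 1140 units, were below the 3 KO SpV arrays, at 1297 to 1644 units. In wild-type lungs the Taldo1 difference was -0.10 ± 0.17 with an interval of -0.47 to 0.26, and the interaction was -0.43 ± 0.24 with an interval of -0.94 to 0.09 (limma adjusted p = 1). Without KO SpV array 1 the knockout value was -0.57 ± 0.18 (adjusted p = 0.0738), in a fit that called 1003 of all probe sets, and with array weights it was called (-0.50 ± 0.15, adjusted p = 0.0405). Idh1 1422433_s_at likewise did not overlap in knockout lungs, at -0.41 ± 0.25 (adjusted p = 0.586). In the same comparison 10 of the 11 neutrophil markers measured, of 12 listed, had lower signals in KO HVT than in KO SpV lungs; limma called 0, with 8 at an unadjusted p under 0.05, and called 8 lower without KO SpV array 1. That fit also called lower 5 of 6 alveolar type I, 5 of 11 endothelial and 5 of 7 macrophage markers, each 0 with all arrays. In it the actin ratio was 2.21 to 3.10 on the KO HVT arrays and 1.39 and 1.52 on the remaining KO SpV arrays. With the actin covariate and without KO SpV array 1, limma called 0 of all probe sets in this comparison. The 11 neutrophil markers summed to 4684 to 7162 units in KO HVT lungs and 7239 to 26109 units in KO SpV lungs. Neutrophil sums in wild-type lungs were 5261 to 9912 units under HVT and 6495 to 9114 units under SpV. The part of any of these marker lists in the Taldo1 and Idh1 values was not tested.

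In wild-type lungs the probe sets that did not overlap were Me1 1416632_at and Pgd 1437380_x_at, both with higher signals under ventilation. Me1 had 534 to 574 units in WT HVT lungs and 342 to 480 units in WT SpV lungs, a log2 difference of 0.43 ± 0.16 with an interval of 0.08 to 0.78 (limma adjusted p = 0.545). For Pgd 1437380_x_at the difference was 0.50 ± 0.22 with an interval of 0.02 to 0.97 (adjusted p = 0.642). The other probe set of Me1, 1430307_a_at, had 0.05 ± 0.19, and Pgd 1423706_a_at had 0.01 ± 0.17 with an interval of -0.37 to 0.39. A miss of the threshold does not show that ventilation left these signals alike.

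**Figure D3:**
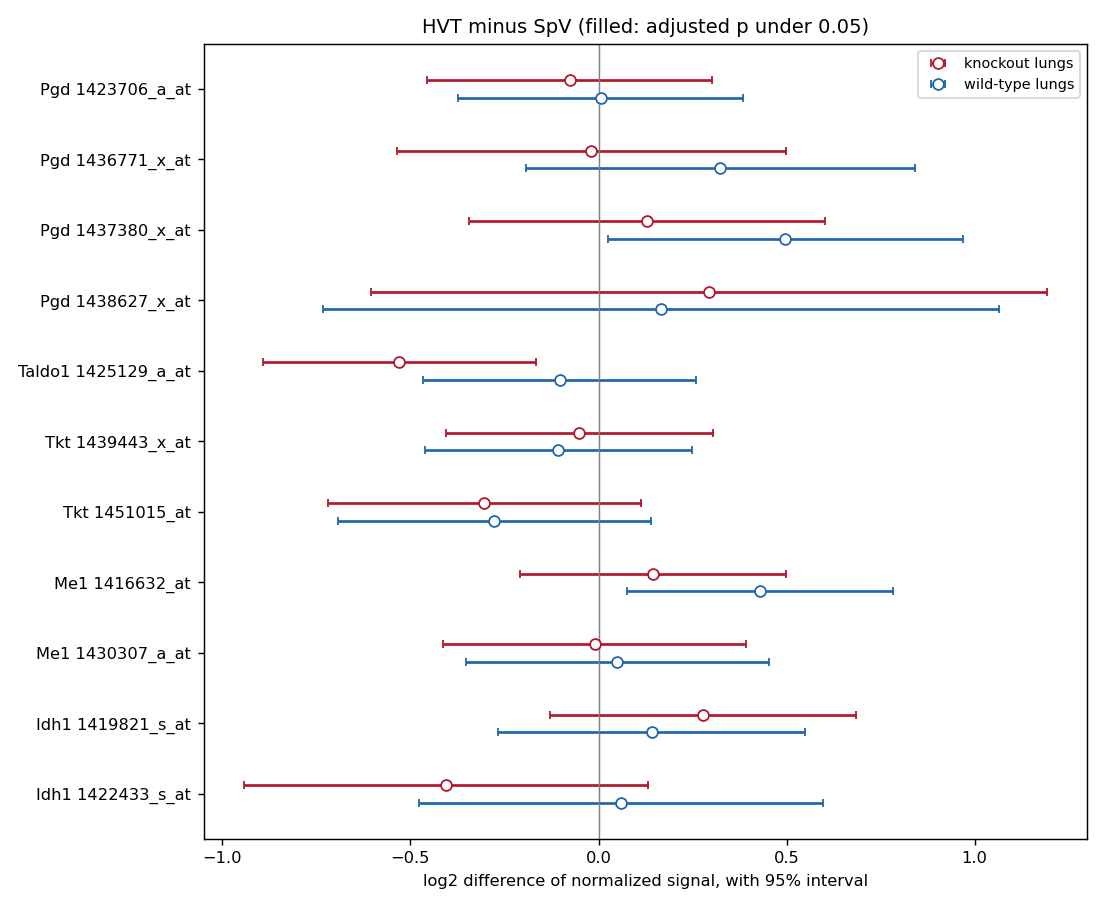
Log2 difference of normalized signal, HVT minus SpV, with 95% intervals, for each of the 11 probe sets in knockout and in wild-type lungs; a filled point would mark a limma adjusted p under 0.05 and none is filled. Taldo1 has the lowest value, at -0.53 in knockout lungs, and Pgd 1437380_x_at the highest, at 0.50 in wild-type lungs.

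The rest of the pentose phosphate pathway and the other NADP-linked enzymes showed no called gene in the averaged genotype comparison. Of 11 other pathway genes 7 were tested, 0 were called by limma and 1 had an unadjusted p under 0.05, with a median difference of -0.19. That gene was H6pd, the hexose-6-phosphate dehydrogenase of the endoplasmic reticulum, at -0.46 ± 0.19 (adjusted p = 0.212). Rpia, the ribose-5-phosphate isomerase, had -0.23 ± 0.13 (adjusted p = 0.344). Of 12 other NADP-linked dehydrogenases and related genes 8 were tested. Limma called 0 of them, 0 had an unadjusted p under 0.05, and their median was 0.02. The lowest p-values there belonged to Aldh1l1, a folate dehydrogenase, at -0.35 ± 0.17 (adjusted p = 0.271), and Mthfd2, a mitochondrial folate dehydrogenase, at 0.49 ± 0.32 (adjusted p = 0.429).

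Among enzymes that spend NADPH, 4 of 11 tested genes, of 16 listed, were called lower in knockout lungs and 0 higher, with a median of -0.35. They were Nqo1, a quinone reductase, at -1.17 ± 0.20 (limma adjusted p = 0.00892), Txnrd1, the cytosolic thioredoxin reductase, at -1.10 ± 0.19 (adjusted p = 0.011), Cbr3, a carbonyl reductase, at -0.96 ± 0.19 (adjusted p = 0.0184), and Blvrb, a biliverdin reductase, at -1.56 ± 0.38 (adjusted p = 0.0458). Without KO SpV array 1 these 4 were again called, and Ncf4, a subunit of the phagocyte NADPH oxidase, was called higher (0.64 ± 0.14, adjusted p = 0.0211). Gsr, the glutathione reductase, had -0.12 ± 0.19 (adjusted p = 0.777). Nqo1 averaged 88.3 ± 34.8 units on knockout arrays and 210 ± 23.9 units on wild-type arrays (SD, n = 6 each), without overlap.

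The list of other NRF2 target genes was, like the members and the other gene lists, chosen with earlier results of these arrays known. Of its 14 genes 12 were tested and 7 were called lower, with 0 higher and a median of -1.36 (9 lower and -1.15 without KO SpV array 1). Among them were Aox1, an aldehyde oxidase, at -1.96 ± 0.11 (limma adjusted p = 3.75e-06), Gstm1, a glutathione transferase, at -1.81 ± 0.12 (adjusted p = 1e-05), Ces1g, a carboxylesterase, at -3.63 ± 0.29 (adjusted p = 3.08e-05), and Gsta3, another glutathione transferase, at -1.90 ± 0.18 (adjusted p = 0.000145). In fatty acid and sterol synthesis, a large consumer of NADPH, 3 of 13 tested genes were called lower and 0 higher, with a median of 0.04. These were the desaturases Fads1, at -0.58 ± 0.10 (adjusted p = 0.0107), Scd2, at -0.79 ± 0.14 (adjusted p = 0.012), and Fads2, at -0.90 ± 0.22 (adjusted p = 0.0441). In glycolysis limma called 0 of 12 tested genes, none had an unadjusted p under 0.05 (0 of 12), and the median was 0.13.

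**Figure D4:**
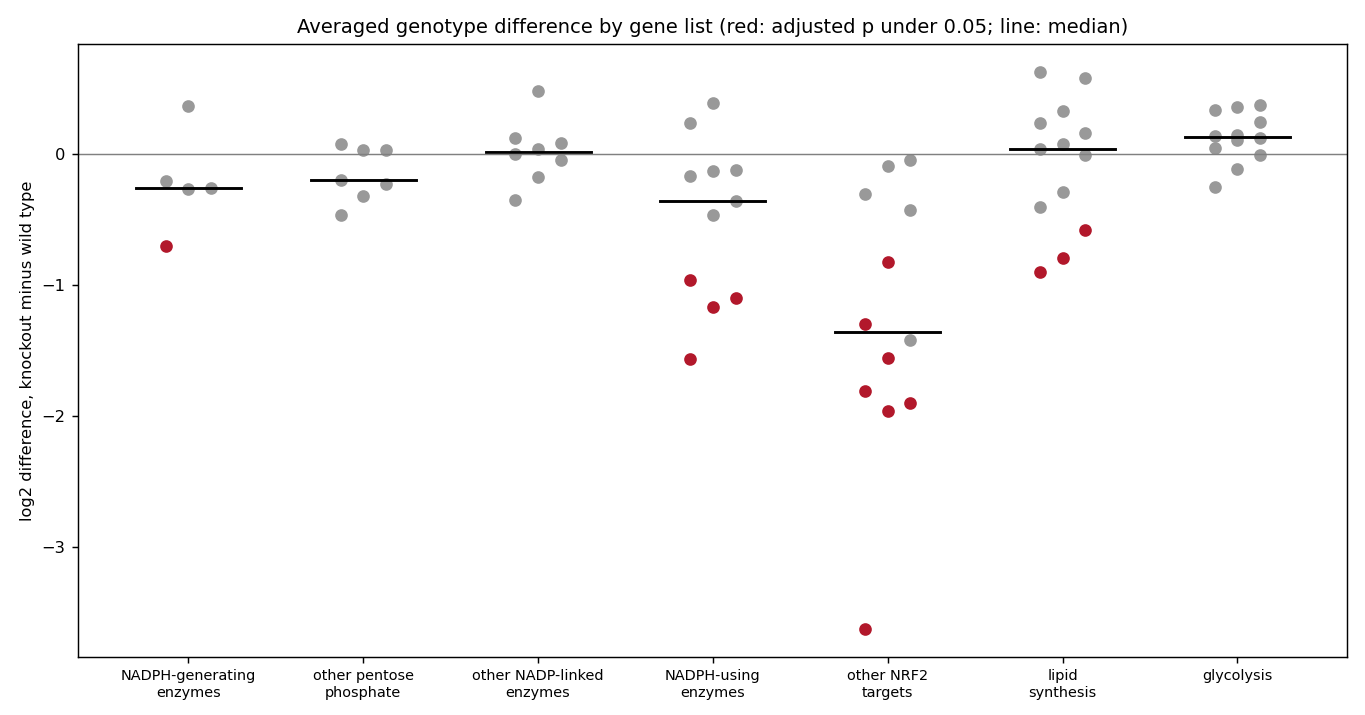
Averaged log2 difference, knockout minus wild type, of each tested gene (its brightest probe set) in 7 gene lists; red points have a limma adjusted p under 0.05 and the black line is the list's median. The medians are -0.25 for the NADPH-generating enzymes and -1.36 for the other NRF2 targets, and called genes, all below 0, number 1, 4, 7 and 3 in the lists of NADPH-generating, NADPH-using, other NRF2 target and lipid synthesis genes.

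Markers of several cell types moved with genotype too. The alveolar type I markers had lower signals in knockout lungs for 6 of 6 measured, of 8 listed, and 2 were called (3 without KO SpV array 1). They summed to 14559 to 19655 units in KO HVT lungs, 14735 to 35998 units in KO SpV lungs, 27786 to 40175 units in WT HVT lungs and 33656 to 44432 units in WT SpV lungs. Endothelial markers had lower signals for 10 of 11, with 5 called lower (7 without KO SpV array 1), and summed to 8840 to 10255 units in KO HVT lungs, 9678 to 18709 units in KO SpV lungs, 15672 to 24906 units in WT HVT lungs and 21256 to 28072 units in WT SpV lungs. Heart muscle markers had higher signals for 10 of 10, with 8 called higher (9 without KO SpV array 1), and summed to 58205 to 72976 units in KO HVT lungs, 47005 to 58439 units in KO SpV lungs, 27178 to 43764 units in WT HVT lungs and 28379 to 40336 units in WT SpV lungs. The type I sums of KO SpV lungs overlapped those of both WT HVT and WT SpV lungs. The endothelial sums of KO SpV lungs overlapped those of WT HVT but not of WT SpV lungs. The low end of both KO SpV ranges came from array 1. The other KO SpV arrays had type I sums of 32240 and 35998 units and endothelial sums of 16166 and 18709 units. The arrays low in both sums, those of KO HVT lungs and KO SpV array 1, were also the dimmest. Their trimmed means were 182 to 247 and 73.9, against 279 or more on all other arrays. The part of array quality in the marker sums was not tested. The heart muscle sums of the genotypes did not overlap. The part of these 3 marker lists in the Pgd and Idh1 values was not tested.

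**Figure D5:**
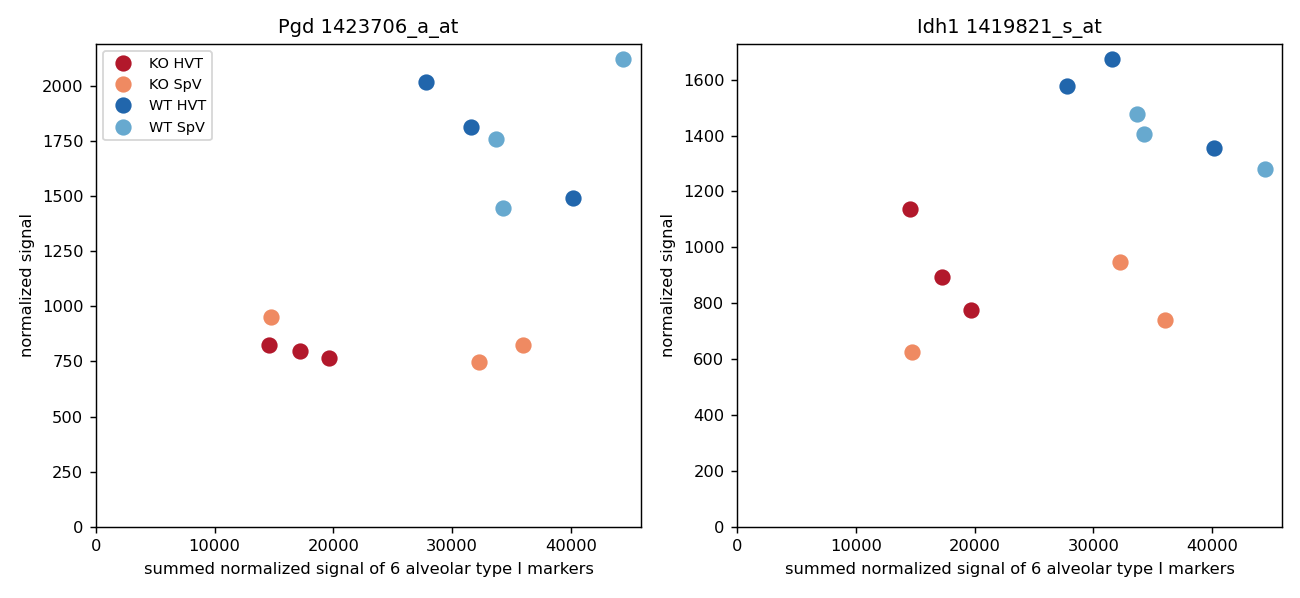
Normalized signal of Pgd 1423706_a_at and of Idh1 1419821_s_at (vertical axes, array units) against the summed normalized signal of 6 alveolar type I markers (horizontal axes, array units) on each of the 12 arrays. Marker sums run from 14559 to 35998 units on knockout arrays and from 27786 to 44432 units on wild-type arrays, and Pgd signals from 749 to 951 units on knockout arrays and from 1445 to 2121 units on wild-type arrays.

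The genes whose brightest probe sets followed these enzymes most closely over the 12 arrays were named by Pearson's r, as a description. The arrays share the genotype difference and their quality, which enter each r. For Pgd they were Osgin1 (r = 0.90), Syt11 (r = 0.88) and Brd1 (r = 0.88). For Tkt they were Itprid2 (r = 0.89), Dipk2a (r = 0.89) and Srp14 (r = 0.88), and for Taldo1 they were Galnt1 (r = 0.93), Ccrl2 (r = 0.92) and Ppp2r5b (r = 0.90). Me1 was followed by Flnc (r = 0.94), Prm1 (r = 0.91) and Metap1d (r = 0.91), and Idh1 by Pex3 (r = 0.90), Inpp5k (r = 0.89) and Lmf1 (r = 0.87).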

How the data were processed

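Per the submitters' processing notes, the deposited signals were made with the Affymetrix GeneChip Operating Software (GCOS) version 1.4, and they are linear intensity values of the authors, 1 per probe set. The design text describes scaling to an average of 500, which the deposited intensity values do not show. Each array was therefore scaled to a mean of 500 trimmed by 2% at each end, and the arrays were quantile normalized. Log2 was taken after adding 16, which understates changes of dim probe sets, and a probe set was kept with a scaled signal of at least 100 on at least 3 arrays (15855 of 22626, without 64 controls). Of these 22626, the annotation names 1 gene for 20380, several for 691 and none for 1555.

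A model of the 4 group means over the 12 arrays was fitted with limma 3.58.1, run in R 4.3.3 (lmFit, eBayes with intensity trend, 8 residual degrees of freedom). The 7 contrasts were two-sided, with Benjamini-Hochberg adjustment over all 15855 probe sets and calls at an adjusted p under 0.05. The number of arrays limits the precision: log2 differences had a median SE of 0.241 for 2 groups, 0.171 for an average and 0.342 for the interaction. An exact test of 3 against 3 arrays cannot go below p = 0.1. The script was tested on simulated data. The members and the 16 other gene lists were chosen with earlier results of these data known, and the promoter motif after the sequences had been seen. All probe sets of the members were named, with Nfe2l2. Of the lists of related enzymes, up to 4 called genes with the smallest p were named, or 2 where none was called; Gsr was added afterwards. For each member, 3 genes of highest correlation were named. Alternatives covered scaling, pseudocount, filter, probe set choice, variance model, array weights, an actin covariate, a replicate block and leaving out each array; gene lists were refitted only without KO SpV array 1, a choice made after the data had been seen. No array was left unassigned.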

Additional observations from a re-analysis of the deposited data

How the results depend on the processing

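The plan held 24 alternatives and 3 were added. Values of single probe sets were compared under the planned ones and 1 added one, the actin covariate without KO SpV array 1. Of these 1883 values 21 lost a call, 24 gained one and 0 changed sign where either fit had called them. A further 104, none called, changed sign, at most 0.52 in size as reported. The largest of these was the SpV genotype difference of Pgd 1437380_x_at, at -0.52 as reported and up to 0.27 in the alternatives. Counted by the brightest probe set of each gene, the averaged genotype comparison called 1 gene (Pgd), 0 with unscaled deposited values, 2 with array weights (Pgd, Me1), 3 with the mean of all probe sets, and 0 to 1 without 1 array. Knockout against wild type in HVT lungs called 0, but 1 with array weights, 1 without x_at and s_at probe sets, 1 with the actin covariate and no KO SpV array 1, and 0 to 1 without 1 array. The SpV comparison called 0, but 2 with array weights and 1 without x_at and s_at probe sets. Ventilation called 1 gene in knockout lungs (Taldo1) and 1 on average (Me1), each with array weights, whose estimation gave a convergence warning. Without scaling, the median averaged genotype difference of all probe sets was -0.60; Pgd 1423706_a_at was -1.79 (adjusted p = 0.0599), Idh1 1419821_s_at -1.48 (0.173) and Me1 1416632_at -0.31 (0.576), so the Me1 sign turned with the scaling. Whether arrays with the same replicate number were handled together is not known from the sample titles. Same-numbered arrays' deviations correlated at -0.18 to 0.38. Among the arrays of the other groups, 8 of 12 arrays correlated best with one of their own number. Every group holds 3 numbers, so most of the compared arrays carried a different number. With the replicate block the averaged genotype comparison again called 1 of these genes, and 695 probe sets in all against 518 without it. Calls over all probe sets in that comparison ran from 206 (without WT HVT array 2) to 875 (without KO SpV array 1) in the fits without 1 array, 128 with unscaled values and 1944 with array weights. Ventilation in knockout lungs called 0 of all probe sets, 1003 without KO SpV array 1, 122 with the actin covariate and 2232 with array weights. With the actin covariate and no KO SpV array 1 it called 0. The cause of these changes was not tested. Signals carry no read depth; dim signals and 3 arrays per group limit what could be detected.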

Other observations

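Markers of other lung and blood cells were measured on the same arrays. Of 10 alveolar type II markers 9 were tested and limma called 0 in the averaged genotype comparison, with 6 at an unadjusted p under 0.05 and a median log2 difference of -0.30, knockout minus wild type. Without KO SpV array 1 it called 1, Napsa, a protease of surfactant processing, lower (-0.95 ± 0.18, adjusted p = 0.00897). Of 12 lung macrophage markers 7 were tested, with 0 called, 2 at an unadjusted p under 0.05 and a median of -0.00. Without that array Itgax, an integrin of macrophages and dendritic cells, was called higher (0.59 ± 0.11, adjusted p = 0.0074). Of 8 airway club and ciliated cell markers 7 were tested, with 0 called, 0 at an unadjusted p under 0.05 and a median of 0.11. The 2 red cell markers tested, of 9 listed, both had lower signals under ventilation averaged over the genotypes, HVT minus SpV: Slc4a1, the anion exchanger of the red cell membrane, was called at -1.62 ± 0.24 (limma adjusted p = 0.0425), and Alas2, the erythroid enzyme of heme synthesis, had -0.97 ± 0.29 (adjusted p = 0.19).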
